A study of Mus musculus with 6 samples.

Results

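The joining segments of the T cell receptor alpha locus, named Traj, were examined in RNA of mouse thymocytes. All rows of the count table whose gene symbol on GRCm38 starts with Traj were taken, which gave 60 of 55536 genes. They lie in 1 array on the plus strand of chromosome 14, from 54155005 to 54218842, and were ranked from 1 at the 5′ end (Traj61) to 60 at the 3′ end (Traj1). The annotation (GENCODE M21) types 51 of them as joining genes and 9 as joining pseudogenes, with lengths of 29 to 72 bases. The constant gene Trac follows 1.68 kb after Traj1. Thymocytes came from 3 mice labelled Il3ra-/-, a genotype without the interleukin-3 receptor alpha chain, and from 3 mice labelled Il3ra+/+, 1 library per mouse. No mouse was treated, per the design text, which calls the cells steady-state. Age, sex, strain, the deleted part of the allele and any sorting of the cells are not stated in the labels.

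A thymocyte builds an alpha chain gene by joining a variable (Trav) segment to a joining segment, after which the joined exon is spliced to Trac. This happens in double-positive thymocytes, which carry both CD4 and CD8. The first joins use segments at the 5′ end of the Traj array, where the T early alpha promoter starts germline transcripts through the first segments. If the resulting receptor is not selected, further rounds join more upstream Trav segments to more 3′ Traj segments and delete the DNA between them. The position of used joining segments along the array is therefore taken as a gauge of how far alpha rearrangement went. Traj18 and Traj33 are the joining segments of the invariant alpha chains of natural killer T cells and of mucosal-associated invariant T cells.

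Sequences are shown for both ends of the array, where the counts and the differences were concentrated, for the segments of lowest fold change, and for the segments of the invariant chains. They are RNA-sense strands from GENCODE M21 transcripts on GRCm38, 5′ to 3′, and capitals mark the motif TTTGGNNNNGG or TTCGGNNNNGG. This motif spells most forms of the phenylalanine-glycine turn that joining segments share. It was found on the sense strand in 43 of the 60 segments, in 42 of the 51 joining genes and in 1 of the 9 pseudogenes, and on the antisense strand alone in 0. The first 61 bases, the median segment length, held it on either strand in 1.34% of 141454 annotated transcripts. The 4 most 5′ segments follow, of which Traj58 alone holds the motif.
Traj61 (chr14:54155005-54155076, plus strand): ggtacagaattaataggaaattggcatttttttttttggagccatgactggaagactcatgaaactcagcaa
Traj60 (chr14:54155933-54155986, plus strand): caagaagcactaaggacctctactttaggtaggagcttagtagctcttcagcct
Traj59 (chr14:54156133-54156196, plus strand): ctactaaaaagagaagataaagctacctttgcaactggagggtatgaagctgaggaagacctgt
Traj58 (chr14:54157280-54157342, plus strand): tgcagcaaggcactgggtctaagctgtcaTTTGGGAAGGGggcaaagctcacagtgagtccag

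The segments below are from the middle and the 3′ end. No match was found in Traj33, Traj20, Traj3 and Traj1.
Traj33 (chr14:54185358-54185414, plus strand): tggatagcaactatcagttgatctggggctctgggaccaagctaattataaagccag
Traj21 (chr14:54198790-54198846, plus strand): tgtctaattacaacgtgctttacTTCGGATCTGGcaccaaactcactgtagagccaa
Traj20 (chr14:54199441-54199498, plus strand): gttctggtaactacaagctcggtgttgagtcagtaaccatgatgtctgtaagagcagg
Traj18 (chr14:54200777-54200842, plus strand): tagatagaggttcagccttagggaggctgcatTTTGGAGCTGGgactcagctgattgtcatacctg
Traj6 (chr14:54212688-54212749, plus strand): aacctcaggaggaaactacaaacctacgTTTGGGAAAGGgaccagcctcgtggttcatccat
Traj4 (chr14:54216291-54216353, plus strand): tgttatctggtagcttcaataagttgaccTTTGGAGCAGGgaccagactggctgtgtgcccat
Traj3 (chr14:54217292-54217357, plus strand): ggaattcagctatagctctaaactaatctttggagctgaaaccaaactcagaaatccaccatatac
Traj2 (chr14:54217836-54217901, plus strand): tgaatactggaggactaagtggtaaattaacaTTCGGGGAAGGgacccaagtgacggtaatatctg
Traj1 (chr14:54218814-54218842, plus strand): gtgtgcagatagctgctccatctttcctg

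Libraries held 55747682 to 82684219 counts in all. Il3ra, the targeted gene, had 481, 673 and 514 counts in the libraries labelled Il3ra-/-, against 465, 376 and 399 in the Il3ra+/+ libraries, so it does not check the labels, and directions are given by label throughout. It lies on the same chromosome as the array, 39.8 Mb away. Replicate 1 of each genotype stood apart by Xist, the RNA of the inactive X chromosome, with 128236 counts labelled Il3ra-/- and 88078 in Il3ra+/+, against 8 to 57 in the other libraries.

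Few reads were assigned to Traj rows. They summed to 1488, 1789 and 1025 counts in the libraries labelled Il3ra-/- replicates 1 to 3, against 1245, 1618 and 1740 in Il3ra+/+ replicates 1 to 3. A single segment had 0 to 150 counts in a library. Segments are shorter than or about as long as a sequencing read, so a read on a joined exon can also touch a Trav row or Trac. The labels do not say how such reads were counted, and a count on a segment does not tell a joined transcript from a germline or unspliced one. Between libraries of the same genotype the Traj counts gave a chi-square of 1.64 to 3.08 per degree of freedom, where sampling noise alone gives about 1, so the counting intervals below are too narrow as errors of a mouse.

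Along the array the counts formed 2 peaks in every library, a sharp one over the first 4 segments and a broad one rising to the 3′ end. The 6 segments of highest mean share of Traj counts over the 6 libraries were Traj2 (6.98%), Traj6 (5.55%), Traj3 (5.12%), Traj61 (4.85%), Traj59 (4.07%) and Traj1 (4.01%). Per base of segment, Traj1 ranked first at 31.0 CPM per kb (CPM, counts scaled to library size with TMM), and Traj2 followed at 24.6 CPM per kb. Because segments are about as short as a read, dividing by length can favour the shortest rows, and Traj1 has only 29 bases. By share the pseudogene rows Traj61 and Traj1 ranked among the most counted segments. The 16 segments from Traj57 to Traj42 formed a trough, with 71 to 142 counts together in the libraries labelled Il3ra-/- and 90 to 108 in Il3ra+/+. Traj54 had the lowest mean share, with 4, 0 and 0 counts labelled Il3ra-/- and 1, 1 and 0 in Il3ra+/+.

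**Figure D1:**
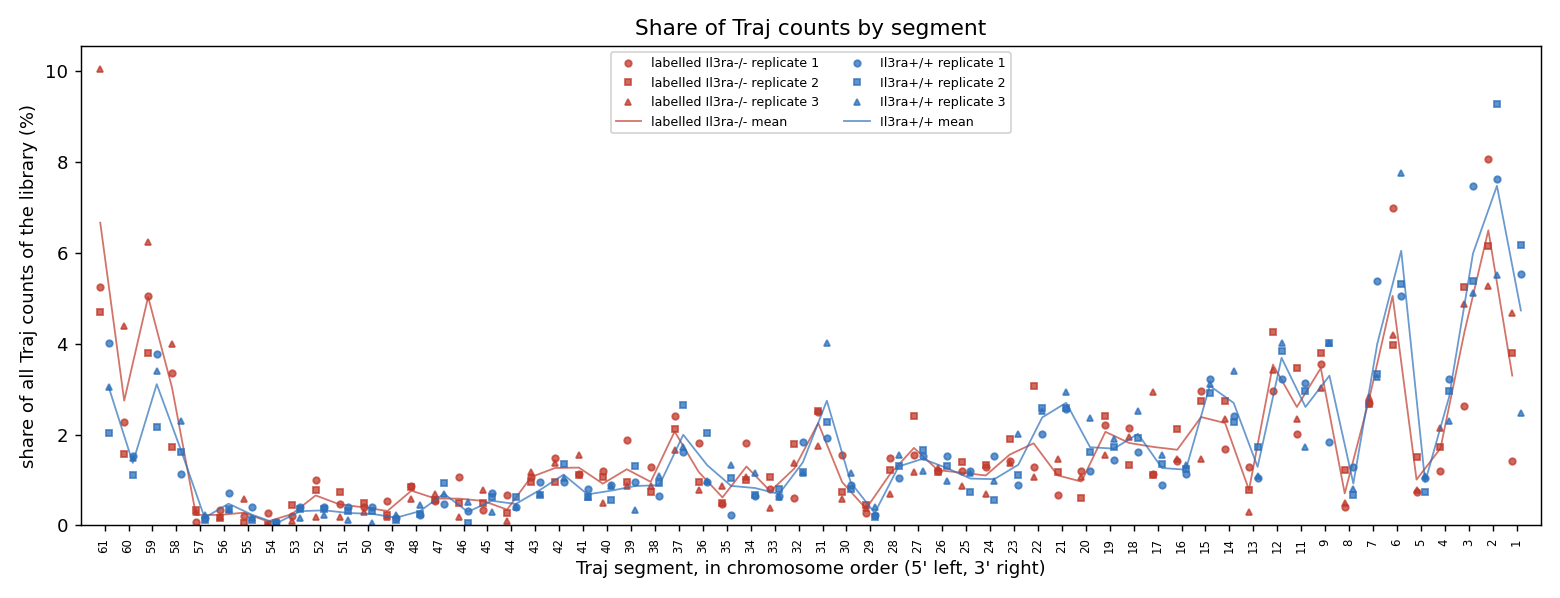
Share of all Traj counts of a library (percent, vertical axis) for each of the 60 segments in chromosome order, 5′ on the left, with 1 point per library and a line through the mean of each genotype. Both genotypes peak at Traj61 to Traj58 and again towards Traj1, with means at Traj61 of 6.66% labelled Il3ra-/- and 3.03% in Il3ra+/+.

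The libraries labelled Il3ra-/- had more of their Traj counts at the 5′ end of the array and fewer at the 3′ end. The 20 most 5′ segments (Traj61 to Traj42) held 25.5% (95% Clopper-Pearson interval 23.3 to 27.8), 19.6% (17.8 to 21.5) and 31.6% (28.8 to 34.6) of Traj counts in the libraries labelled Il3ra-/- replicates 1 to 3. In Il3ra+/+ replicates 1 to 3 they held 17.7% (15.6 to 19.9), 13.6% (11.96 to 15.4) and 15.9% (14.2 to 17.7). The genotypes did not overlap, and the libraries labelled Il3ra-/- were spread more widely, from the lowest in replicate 2 to the highest in replicate 3. The means were 25.6 ± 5.996% labelled Il3ra-/- and 15.7 ± 2.04% in Il3ra+/+ (SD, n = 3 each), a difference of 9.86 percentage points. With the Xist-high replicate 1 of both genotypes left out they were 25.6% labelled Il3ra-/- and 14.7% in Il3ra+/+.

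The 20 most 3′ segments (Traj21 to Traj1) showed the opposite. They held 47.4% (44.8 to 49.95), 52.9% (50.5 to 55.2) and 48.6% (45.5 to 51.7) of Traj counts labelled Il3ra-/- and 60.3% (57.5 to 63.1), 62.1% (59.6 to 64.4) and 58.3% (55.9 to 60.6) in Il3ra+/+. All 3 libraries labelled Il3ra-/- lay below all 3 Il3ra+/+ libraries. The counting intervals did not touch between genotypes here, while at the 5′ end those of labelled Il3ra-/- replicate 2 and Il3ra+/+ replicate 1 did. These intervals cover counting error only and are too narrow as errors of a mouse. The means were 49.6 ± 2.89% labelled Il3ra-/- and 60.2 ± 1.89% in Il3ra+/+ (SD, n = 3 each), a difference of -10.6 percentage points. The 20 segments between them (Traj41 to Traj22) overlapped, with 27.2%, 27.5% and 19.8% labelled Il3ra-/- and 22.0%, 24.4% and 25.9% in Il3ra+/+. These shares are sums over chosen members and were given no test. In these bulk libraries fewer cells of a stage and less RNA per cell cannot be told apart.

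**Figure D2:**
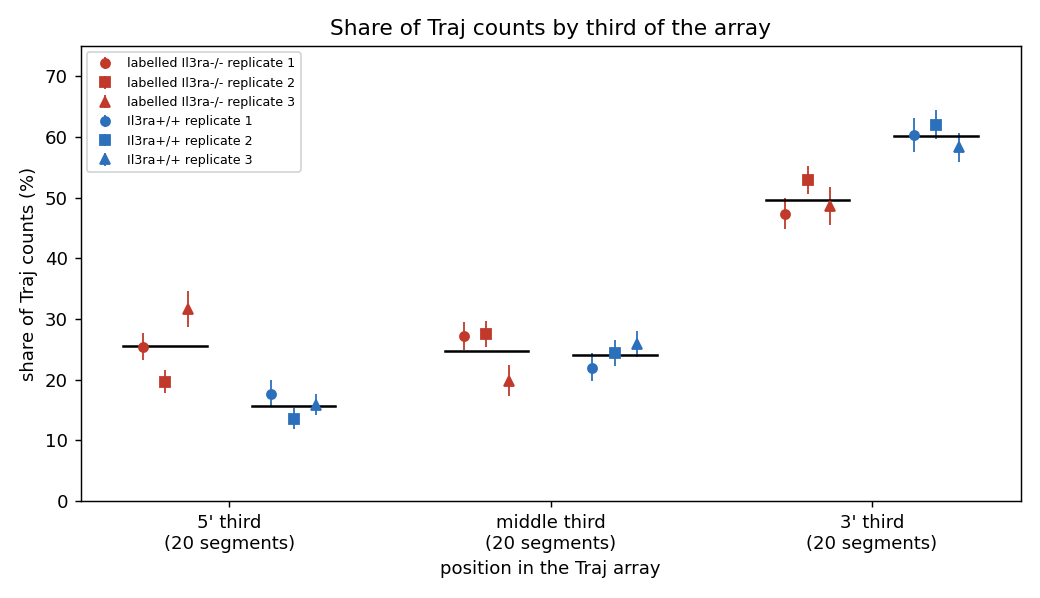
Share of Traj counts (percent, vertical axis) in the 20 most 5′, 20 middle and 20 most 3′ segments, 1 point per library with its 95% Clopper-Pearson counting interval and a black line at the mean of each genotype. At the 5′ end the libraries labelled Il3ra-/- lie at 19.6 to 31.6% and Il3ra+/+ at 13.6 to 17.7%, and at the 3′ end the libraries labelled Il3ra-/- lie at 47.4 to 52.9% and Il3ra+/+ at 58.3 to 62.1%.

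The count-weighted mean rank gives the position in 1 number per library. It was 34.8, 37.9 and 33.1 in the libraries labelled Il3ra-/- and 40.3, 41.5 and 39.4 in Il3ra+/+, again without overlap. Means were 35.2 ± 2.42 labelled Il3ra-/- and 40.4 ± 1.05 in Il3ra+/+ (SD, n = 3 each), which is 5.15 ranks further 5′ in the libraries labelled Il3ra-/-. In distance the mean position was 36.9 ± 2.63 kb from the start of Traj61 labelled Il3ra-/- and 42.5 ± 1.15 kb in Il3ra+/+. The segment at which the cumulative share passed 50% was Traj23, Traj19 and Traj23 labelled Il3ra-/-, and Traj15, Traj15 and Traj18 in Il3ra+/+.

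**Figure D3:**
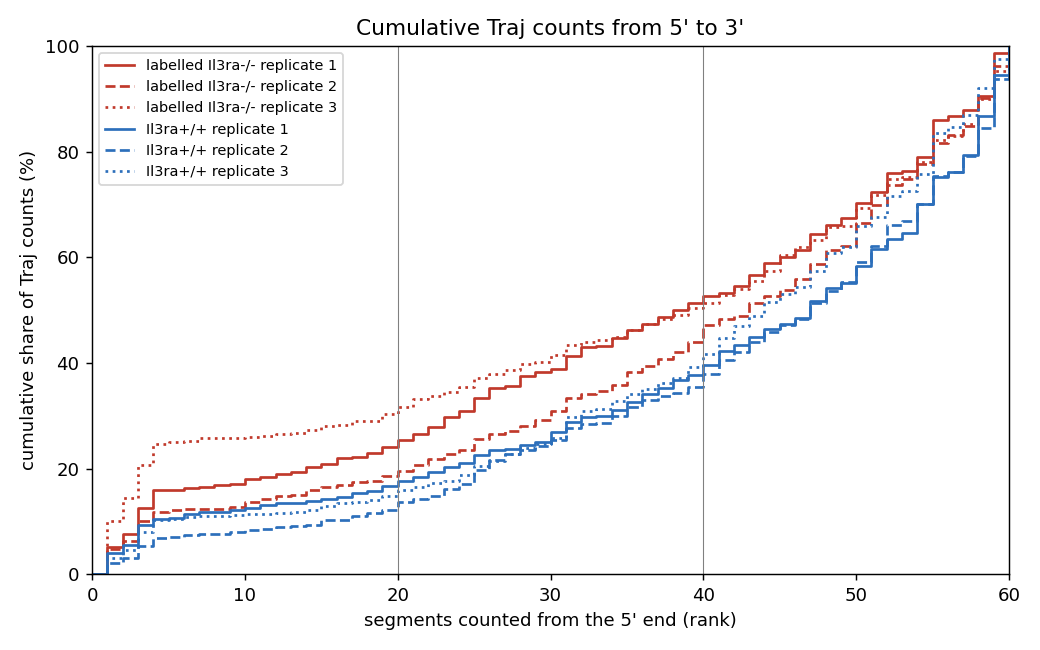
Cumulative share of Traj counts (percent, vertical axis) over segments counted from the 5′ end (rank, horizontal axis), 1 stepped line per library, with grey lines after ranks 20 and 40. At rank 20 the lines labelled Il3ra-/- stand at 25.5%, 19.6% and 31.6%, all above the Il3ra+/+ lines at 17.7%, 13.6% and 15.9%.

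Much of the shift lay in the first 4 segments, a block set after the values were seen. Traj61 to Traj58 held 15.9%, 11.8% and 24.7% of Traj counts labelled Il3ra-/- and 10.4%, 6.92% and 10.2% in Il3ra+/+. Among the 56 other segments the difference in the share of the 20 most 3′ was -6.04 percentage points, and the difference in mean rank was -1.99. Both kept the genotypes apart without overlap. The remaining 16 segments of the 5′ end (Traj57 to Traj42) held 9.54%, 7.83% and 6.93% of all Traj counts labelled Il3ra-/- and 7.23%, 6.67% and 5.63% in Il3ra+/+, which overlap. As shares of the 56 segments alone these were 11.4%, 8.87% and 9.20% labelled Il3ra-/- and 8.07%, 7.17% and 6.27% in Il3ra+/+, without overlap. In level these 16 segments hardly differed, at 1.68 ± 0.663 CPM labelled Il3ra-/- and 1.63 ± 0.210 CPM in Il3ra+/+, with overlap. Without the 9 pseudogene rows the difference at the 5′ end was 6.10 percentage points (18.7% labelled Il3ra-/- and 12.6% in Il3ra+/+) and that in mean rank -3.38, both without overlap.

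Traj61, typed as a pseudogene and the first segment behind the T early alpha promoter, had 78, 84 and 103 counts in the libraries labelled Il3ra-/- and 50, 33 and 53 in Il3ra+/+. Its levels of 1.26 ± 0.241 CPM labelled Il3ra-/- and 0.741 ± 0.147 CPM in Il3ra+/+ did not overlap. Its log2 fold change, labelled Il3ra-/- over Il3ra+/+, was 0.76 with a standard error of 0.29, which missed the threshold in the quasi-likelihood test of edgeR (adjusted p = 0.272 by Benjamini-Hochberg over all genes). It was the highest fold change among the tested segments, and Traj60 and Traj41 came next.

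Traj60, also typed as a pseudogene, had 34, 28 and 45 counts labelled Il3ra-/- and 19, 18 and 26 in Il3ra+/+. Traj59 had 75, 68 and 64 counts labelled Il3ra-/- and 47, 35 and 59 in Il3ra+/+. As raw counts both were above every Il3ra+/+ library in all 3 libraries labelled Il3ra-/-, but scaled to library size they overlapped. Their log2 fold changes were 0.57 (SE 0.38) and 0.36 (SE 0.30). Traj58, named after its values were seen to complete the block, had 50, 31 and 41 counts labelled Il3ra-/- and 14, 26 and 40 in Il3ra+/+, with overlap. None of the 3 passed edgeR's test (adjusted p = 0.516, 0.616 and 0.679).

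In the trough the counts were too low for 14 of the 16 segments to be tested one by one. Traj49, beside which a second germline promoter lies, had 8, 4 and 2 counts labelled Il3ra-/- and 2, 2 and 4 in Il3ra+/+, and was not tested. Traj41 had 17, 20 and 16 counts labelled Il3ra-/- and 10, 10 and 11 in Il3ra+/+, or 0.250 ± 0.0273 CPM labelled Il3ra-/- and 0.170 ± 0.00287 CPM in Il3ra+/+, without overlap. The log2 fold change of 0.55 (SE 0.42) did not pass edgeR's test (adjusted p = 0.575). Traj33, of the mucosal-associated invariant chain, had 12, 19 and 4 counts labelled Il3ra-/- and 8, 13 and 11 in Il3ra+/+. These overlapped, and its log2 fold change of -0.12 had a standard error of 0.56 (edgeR, adjusted p = 0.946), so a difference was not detectable at this depth.

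Traj21, the first of the 20 most 3′ segments, had the lowest fold change. It had 10, 21 and 15 counts labelled Il3ra-/- and 32, 42 and 51 in Il3ra+/+, which is 0.210 ± 0.0428 CPM labelled Il3ra-/- and 0.682 ± 0.128 CPM in Il3ra+/+ (SD, n = 3 each). Every library labelled Il3ra-/- was below every Il3ra+/+ library. The log2 fold change was -1.68 (SE 0.36), with an unadjusted p of 0.000726 and an adjusted p of 0.139 by edgeR's quasi-likelihood test. With replicate 1 of both genotypes left out, the adjusted p was 0.0491, where 3.98% of all genes passed. With no filter on low counts it was 0.0104, where 2.53% of all genes passed. DESeq2 gave it an adjusted p of 0.0274 when its independent filtering was off, where 2.88% of all genes passed, and none with that filtering on.

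Its 3′ neighbour Traj20, which holds no turn motif, had 18, 11 and 11 counts labelled Il3ra-/- and 15, 26 and 41 in Il3ra+/+, and overlapped, since labelled Il3ra-/- replicate 1 was above Il3ra+/+ replicate 1. The fitted log2 fold change was -1.20 (SE 0.48; edgeR adjusted p = 0.288). Traj18, of the invariant natural killer T cell chain, had 32, 24 and 20 counts labelled Il3ra-/- and 20, 31 and 44 in Il3ra+/+. The genotypes overlapped, and the log2 fold change of -0.50 (SE 0.41) did not pass edgeR's test (adjusted p = 0.605).

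At the 3′ end, next to Trac, the levels were lower on average in the libraries labelled Il3ra-/-, although no segment passed edgeR's test over all 6 libraries with the low-count filter. Traj4 had 18, 31 and 22 counts labelled Il3ra-/- and 40, 48 and 40 in Il3ra+/+. Its level was 0.328 ± 0.0374 CPM labelled Il3ra-/- and 0.705 ± 0.113 CPM in Il3ra+/+, without overlap, and its log2 fold change was -1.09 (SE 0.33; edgeR adjusted p = 0.192). Traj3 had 39, 94 and 50 counts labelled Il3ra-/- and 93, 87 and 89 in Il3ra+/+, which did not overlap after scaling, at 0.828 ± 0.256 CPM labelled Il3ra-/- and 1.48 ± 0.101 CPM in Il3ra+/+. Here the log2 fold change was -0.83 (SE 0.29; edgeR adjusted p = 0.241).

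Traj2 and Traj6, the most counted segments, overlapped between genotypes. Traj2 had 120, 110 and 54 counts labelled Il3ra-/- and 95, 150 and 96 in Il3ra+/+, and Traj6 had 104, 71 and 43 counts labelled Il3ra-/- and 63, 86 and 135 in Il3ra+/+. Their log2 fold changes were -0.48 (SE 0.36) and -0.54 (SE 0.39), with edgeR adjusted p-values of 0.566 and 0.554. Traj1, the last pseudogene row, had 21, 68 and 48 counts labelled Il3ra-/- and 69, 100 and 43 in Il3ra+/+, also with overlap. Its log2 fold change was -0.92 (SE 0.41; edgeR adjusted p = 0.332).

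Of the 60 segments, 44 had enough counts to be tested, and 14 of the 16 left out lie among the 20 most 5′. None of the 44 passed an adjusted p of 0.05 by edgeR's quasi-likelihood test, against 0.091% of all 18690 tested genes. DESeq2, whose independent filtering leaves low-count genes without an adjusted p, gave one to 4 of the 44, and 0 of these passed, against 4.32% of all genes that had one. With that filtering off, a setting chosen after seeing the data, 1 of the 44 passed (Traj21, lower), against 2.88%. At an unadjusted p under 0.05 edgeR counted 1 segment higher (Traj61), against 8.01% of all tested genes, and 6 lower, against 6.6%. The 6 (Traj21, Traj20, Traj7, Traj4, Traj3 and Traj1) all lie among the 20 most 3′. With the Traj total as library size, 1 was higher (Traj61), against 13.5% of all genes, and 1 lower (Traj21), against 0.305%. That scaling fitted 16710 of all 18690 genes higher, so these percentages are no background for the segments. DESeq2 counted 6 in both directions together at an unadjusted p under 0.05, where 14.8% of all genes did so. Standard errors of the tested log2 fold changes ran from 0.29 to 0.60, with a median of 0.43.

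A fit of all rows without the filter on low counts gave a fold change to each of the 60 segments. Among the 20 most 5′ segments 13 were fitted higher and 7 lower, with a median log2 fold change of 0.40. Among the middle 20, 5 were higher and 15 lower (median -0.17). Among the 20 most 3′, 1 was higher (Traj16) and 19 lower (median -0.58), while the median over all 33265 genes of that fit was -0.0048. Part of this is the lower mean level of the whole array. Scaled instead to the Traj total, in the fit with the filter, Traj19, Traj17, Traj16, Traj11, Traj9 and Traj5 of these 20 were higher and the others lower. As a description, the log2 fold change of the 44 tested segments fell along the array, with a Pearson r of -0.69 and a Spearman rho of -0.68 against rank. Without the first 4 segments these were -0.53 and -0.58 over 40 segments. Over all 60 segments in the fit without the filter, r was -0.57 and rho was -0.57. The segments share libraries and may share transcripts, so they are not independent points.

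**Figure D4:**
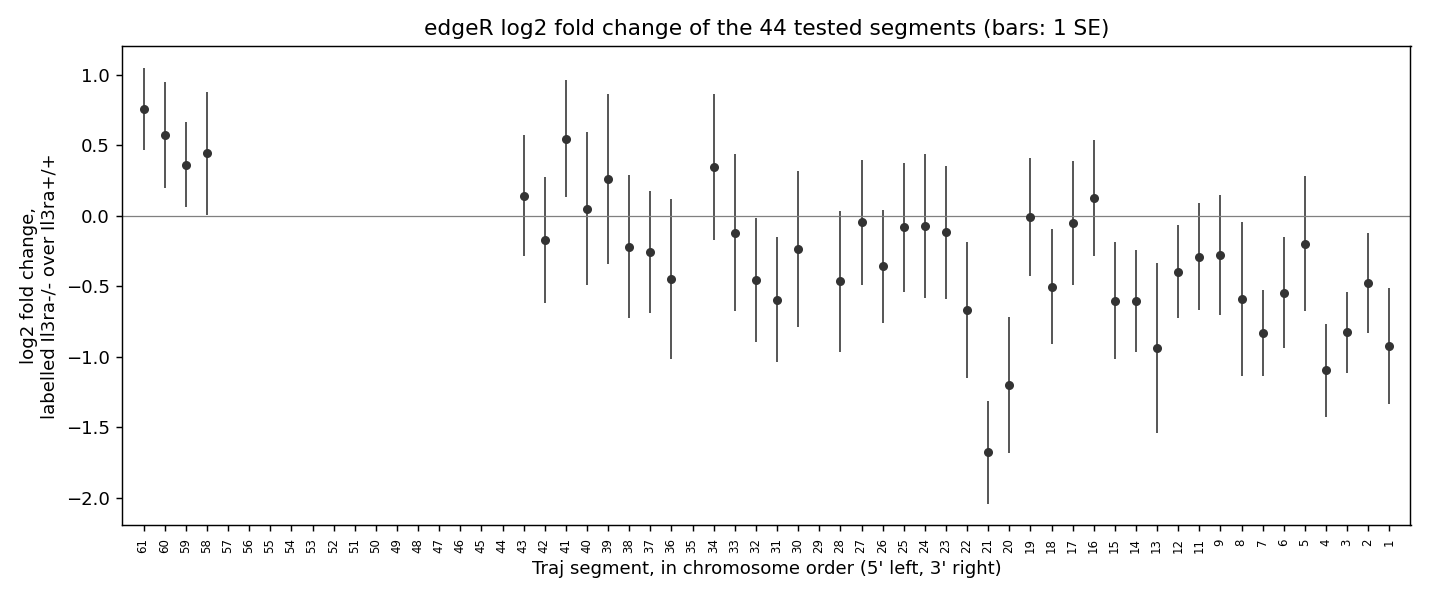
Log2 fold change of CPM, labelled Il3ra-/- over Il3ra+/+ (vertical axis), of the 44 tested segments in chromosome order, 5′ on the left, with bars of 1 standard error. The first 4 lie above 0, and 19 of the 20 at the 3′ end lie below 0, down to -1.68 at Traj21.

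Counted as CPM, 2 of the 60 segments (Traj61 and Traj41) lay above Il3ra+/+ in every library labelled Il3ra-/-, where 10.9% of all tested genes did. In the other direction 5 (Traj56, Traj21, Traj7, Traj4 and Traj3) lay below, against 9.38% of all tested genes, so neither count stood out from that share. Counted as shares of the Traj total, which take out the level of the whole array, 6 segments (Traj61, Traj60, Traj59, Traj48, Traj41 and Traj16) lay above and 4 (Traj56, Traj21, Traj7 and Traj4) below. When the counts of all tested genes were divided by the same totals, 13.9% lay above and 0.792% below. Relative to library size these totals were lower on average in the libraries labelled Il3ra-/-, so the division moves most genes up. These percentages are therefore no background for the segments, whose shares balance around their own sum. With the Traj total as library size, edgeR fitted 24 of the 44 segments higher and 20 lower, and the median of all genes moved to 0.37. Relative to that total 0 segments passed, against 0.599% of all genes.

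Over the 6 libraries the summed level of the array overlapped between genotypes. Traj rows summed to 24.6, 21.3 and 14.7 CPM in the libraries labelled Il3ra-/- and 20.9, 28.0 and 26.7 CPM in Il3ra+/+, with means of 20.2 ± 5.02 CPM labelled Il3ra-/- and 25.2 ± 3.78 CPM in Il3ra+/+ (SD, n = 3 each). The difference of -4.97 CPM was -2.23 CPM without labelled Il3ra-/- replicate 3, and -9.30 CPM without replicate 1 of both genotypes. Without Il3ra+/+ replicate 1 it was -7.12 CPM, and in both settings that leave this library out the genotypes did not overlap. By position, the 20 most 3′ segments summed to 10.03 ± 2.49 CPM labelled Il3ra-/- and 15.2 ± 2.41 CPM in Il3ra+/+, without overlap. The 20 most 5′ segments summed to 5.03 ± 1.09 CPM labelled Il3ra-/- and 3.91 ± 0.284 CPM in Il3ra+/+, with overlap. Of these, the first 4 segments summed to 3.36 ± 0.741 CPM labelled Il3ra-/- and 2.28 ± 0.404 CPM in Il3ra+/+, also with overlap.

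Trac, the constant gene to which a joined segment is spliced (54220521 to 54224206), had 316, 393 and 351 CPM in the libraries labelled Il3ra-/- and 467, 468 and 474 CPM in Il3ra+/+. The genotypes did not overlap. Its log2 fold change was -0.41 (SE 0.11), with an adjusted p of 0.154 by edgeR. DESeq2 gave Trac an adjusted p of 0.00925, where 4.32% of all genes that had one passed. By edgeR without the filter on low counts it was 0.0245, where 2.53% of all genes passed. Trac did not pass by limma-voom (adjusted p = 0.203) or in any edgeR fit that left libraries out. Scaled to the Traj sum, its log2 fold change was -0.05. Per 1000 Trac counts there were 77.8, 54.3 and 42.0 Traj counts labelled Il3ra-/- and 44.7, 59.8 and 56.3 in Il3ra+/+, which overlapped widely.

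**Figure D5:**
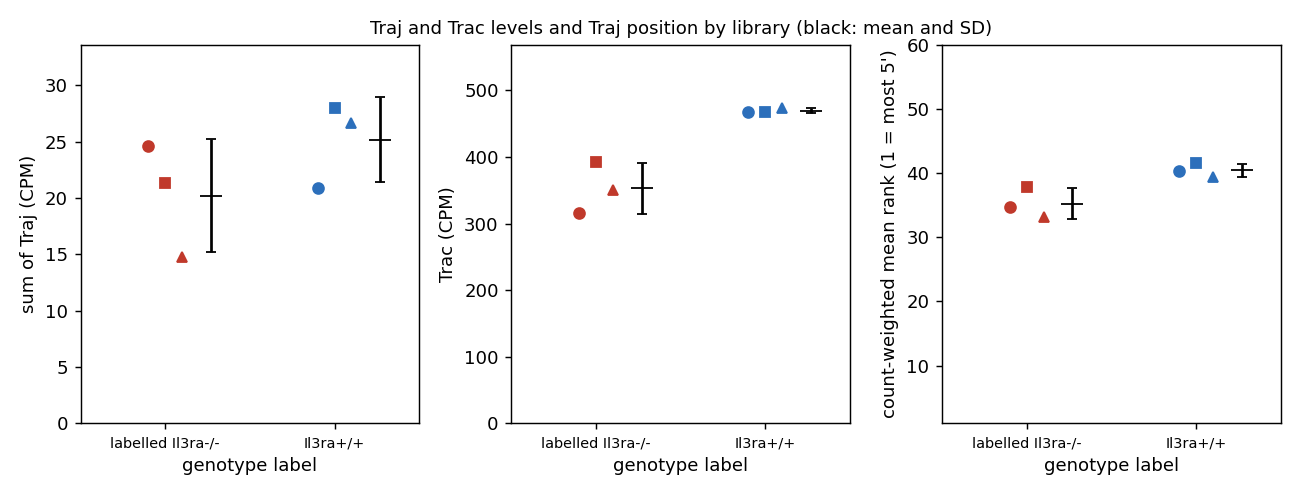
Summed Traj level (CPM), Trac level (CPM) and count-weighted mean rank of Traj counts (axis from 1 to 60, the ranks of the array) by genotype label, 1 point per library, with the mean and SD in black. Trac and the mean rank do not overlap between genotypes (mean rank 33.1 to 37.9 labelled Il3ra-/- and 39.4 to 41.5 in Il3ra+/+), while the summed Traj level does.

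Genes that carry out or time alpha rearrangement were listed as a pathway. None of the 28 passed edgeR's test over all genes. By unadjusted p under 0.05, 3 were higher by edgeR, against 8.01% of all tested genes, and 4 lower, against 6.6%, and the list's median log2 fold change was -0.04, against 0.01 over all tested genes. Rag1, which with Rag2 forms the recombinase, had 2862 ± 64.6 CPM labelled Il3ra-/- and 3503 ± 503 CPM in Il3ra+/+. Bcl2l1, a survival gene of double-positive thymocytes, had 146 ± 2.42 CPM labelled Il3ra-/- and 167 ± 9.58 CPM in Il3ra+/+. Dclre1c, the Artemis nuclease that opens hairpin ends, had 53.5 ± 11.2 CPM labelled Il3ra-/- and 67.5 ± 6.86 CPM in Il3ra+/+. None of these 3 passed edgeR's test (adjusted p = 0.324, 0.333 and 0.318). Rag1, Bcl2l1 and Dclre1c were named after their values were seen.

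Hmgb1, Xrcc6 and Rad21, unlike the genes above, were among the 4 pathway genes of smallest p. Hmgb1 is a DNA-bending cofactor of the recombinase, the Ku subunit Xrcc6 binds broken ends, and the cohesin subunit Rad21 shapes the alpha locus. Hmgb1 had 911 ± 44.9 CPM labelled Il3ra-/- and 733 ± 77.9 CPM in Il3ra+/+. Xrcc6 had 374 ± 16.8 CPM labelled Il3ra-/- and 317 ± 2.70 CPM in Il3ra+/+, and Rad21 had 471 ± 34.6 CPM labelled Il3ra-/- and 385 ± 48.1 CPM in Il3ra+/+. Their log2 fold changes of 0.31, 0.24 and 0.29 did not pass edgeR's test (adjusted p = 0.246, 0.282 and 0.286).

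Summed markers of double-positive, double-negative and gamma delta cells also did not overlap between genotypes. The 7 double-positive markers, which include Rag1, were all fitted lower, and summed to 7079 to 7681 CPM labelled Il3ra-/- and 8245 to 9621 CPM in Il3ra+/+. The 5 double-negative markers were all fitted higher and summed to 130.01 to 161 CPM labelled Il3ra-/- and 109 to 129.6 CPM in Il3ra+/+. These sums nearly met, and taken singly each of the 5 markers overlapped between genotypes. Of all tested genes, 10.9% lay above and 9.38% below without overlap. Of the 6 gamma delta T cell markers 5 were tested and all 5 fitted higher, with sums of 295 to 342 CPM labelled Il3ra-/- and 207 to 280 CPM in Il3ra+/+. One of them is Trdc, the delta constant gene, which starts 12.2 kb before Traj61 and is deleted by a Trav to Traj join. Trdc had 148, 109 and 135 CPM labelled Il3ra-/- and 99.6, 73.3 and 107 CPM in Il3ra+/+. The untested gamma delta marker, Il17a, had 0, 2 and 0 counts labelled Il3ra-/- and 0 in each Il3ra+/+ library. Of all 18690 tested genes, 9572 were fitted higher. No marker of any list passed edgeR's test over all genes, and the part of these cells in the Traj shares was not tested.

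Lists of other cells overlapped between genotypes. Summed CPM of mature single-positive markers were 308 to 384 labelled Il3ra-/- and 305 to 376 in Il3ra+/+, of B cells 26.2 to 53.6 labelled Il3ra-/- and 38.2 to 45.9 in Il3ra+/+, and of macrophages 19.6 to 48.0 labelled Il3ra-/- and 25.5 to 37.7 in Il3ra+/+. Dendritic cell markers summed to 11.3 to 45.3 CPM labelled Il3ra-/- and 16.1 to 18.5 CPM in Il3ra+/+, and thymic epithelium markers to 8.94 to 11.8 CPM labelled Il3ra-/- and 6.52 to 10.05 CPM in Il3ra+/+. Red cell precursor markers summed to 1.85 to 19.1 CPM labelled Il3ra-/- and 4.86 to 32.8 CPM in Il3ra+/+. No marker was at 0 counts in all 6 libraries. Labelled Il3ra-/- replicate 3, which had the highest 5′ share, was the highest of the 6 libraries for summed B cell, macrophage and dendritic cell markers. Not every marker followed. Siglech alone gave 21.9 CPM of its dendritic cell sum, while Xcr1 was 1.84 CPM there and 2.11 to 3.09 CPM in Il3ra+/+. C1qa was highest in labelled Il3ra-/- replicate 2 and Cd79b in Il3ra+/+ replicate 1. Labelled Il3ra-/- replicate 1, second in 5′ share, was the lowest by the sums of all 3 lists. These lists were picked after their values were seen, and a link to the 5′ share was not tested.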

How the data were processed

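Counts per gene were deposited by the authors as raw whole numbers, 1 column per library. Libraries were stranded and poly(A)-selected, per the labels' protocols, and STAR 2.5.4b and featureCounts were used on GRCm38, per the submitters' processing notes. The labels do not give the annotation release, strand setting or handling of reads on several genes. All 55536 identifiers matched GENCODE M21.

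Genotypes were compared with edgeR 4.0.16 (filterByExpr, TMM, glmQLFit with robust = TRUE, glmQLFTest; R 4.3.3) over 18690 genes, with Benjamini-Hochberg adjustment at 0.05, and with DESeq2 1.42.0 (independent filtering on, and off as an added setting) and limma-voom (limma 3.58.1) as alternatives. The fit was tested on simulated counts. Sums and shares over segments carry mean ± SD and no test. With 3 against 3 libraries an exact permutation test cannot go below 0.10. Intervals are 95% Clopper-Pearson and cover counting error only.

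Members, lists and tests were chosen with earlier results of these data known. Named were the 6 segments of highest share, 3 at each end, Traj18, Traj33, Traj49, the 3 of highest and of lowest tested fold change, any called segment, Trac, Il3ra and the 4 pathway genes of smallest p; others named to complete a count were chosen after their values were seen. A pathway gene that this rule names is not reported here. The numbers 1 to 3 did not pair libraries (correlations of same-numbered deviations -0.11, 0.03 and -0.12). Whether replicates came from separate litters or batches is not stated, so p-values measure the spread between these libraries.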

Additional observations from a re-analysis of the deposited data

How the results depend on the processing

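Every alternative kept the direction of the 5′ share, the 3′ share, the mean rank and the summed Traj CPM, with an exception. The Traj sum per 1000 Trac counts was higher in the libraries labelled Il3ra-/- (58.0, against 53.6 in Il3ra+/+, a difference of 4.46 with overlap). The cause was not tested. The share difference at the 5′ end (labelled Il3ra-/- minus Il3ra+/+, percentage points) was 6.10 without pseudogenes and 2.63 without the first 4 segments, and ran from 6.84 to 12.8 with 1 library left out at a time and was 10.9 without replicate 1 of both genotypes. At the 3′ end it was -8.07 without pseudogenes and -6.04 without the first 4 segments, and ran from -12.2 to -9.48 with 1 library left out and was -9.43 without replicate 1 of both. The difference in mean rank was -3.38 without pseudogenes and -1.99 without the first 4 segments and ran from -6.47 to -4.08 with 1 library left out. Dividing counts by segment length moved none of these 3 by more than 1 SD. Leaving out the first 4 segments and dividing by length were chosen after seeing the data. The summed Traj difference ran from -7.16 to -2.23 CPM with 1 library left out, with -2.23 CPM without labelled Il3ra-/- replicate 3, and was -9.30 CPM without replicate 1 of both genotypes; the genotypes did not overlap in that setting or without Il3ra+/+ replicate 1 (-7.12 CPM); other scalings gave -5.08 and -4.93 CPM.

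Called segments were 1 (Traj21, lower) without the filter, without replicate 1 of both genotypes and by DESeq2 with independent filtering off (chosen after seeing the data), and 0 in the other settings; DESeq2 as planned gave only 4 of the 44 segments an adjusted p, so its 0 says nothing of the other 40. Pathway genes called were 1 without the filter (lower) and 2 (both lower, Dclre1c among them) without replicate 1 of both genotypes, and 0 in the other fits. The log2 fold change of Traj33 ran from -0.47 to 0.28 with 1 library left out, and was 0.16 when scaled to the Traj sum; it was above 0 without labelled Il3ra-/- replicate 3 (0.28) and without Il3ra+/+ replicate 2 (0.09), and the cause was not tested. The replicate block left 0 segments and 0 pathway genes called, and 9 genes in the whole table against 17. No library labelled Il3ra-/- correlated best with the Il3ra+/+ library of its own number. Totals of 1025 to 1789 Traj counts limit what single segments can show.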
